A study of Mus musculus with 6 samples.

Results

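Matrix metalloproteinases (MMPs) and the tissue inhibitors of metalloproteinases (TIMPs) were followed as 9 genes, taken by gene symbol from the 24525 rows of the deposited expression table: the inhibitors Timp1, Timp2, Timp3 and Timp4, the secreted proteases Mmp2, Mmp3 and Mmp9, and the membrane-anchored proteases Mmp14 and Mmp15. All 9 symbols were found, and all 9 passed the expression filter. The data are total-RNA libraries from whole hearts of mice aged 3 to 6 months. The 3 libraries labelled DKO (double knockout) are replicates 7, 8 and 9. The DKO genotype is given as Mbnl1-/- with Mbnl2cond/cond alleles and Myh6-Cre+/-, but the genotype tag of replicate 7 reads WT. The 3 labelled WT (replicates 4, 5 and 6) are described only as wild type. Mbnl1 and Mbnl2 encode RNA-binding regulators of alternative splicing. The Mbnl1 allele is null in every cell, while the Myh6 promoter restricts Cre, and so the loss of Mbnl2, to cardiomyocytes; fibroblasts, endothelial cells and blood cells of the DKO heart keep Mbnl2. Whether the WT animals carried Cre or the unrecombined conditional allele is not given in the sources used here.

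MMPs are zinc-dependent proteases that are made as inactive precursors and cut collagens, proteoglycans and other matrix proteins. TIMPs block their catalytic site, and Timp2 also has a part in activation, because a complex of Mmp14 and Timp2 at the cell surface receives the Mmp2 precursor. In the heart, fibroblasts make much of the matrix and many of its proteases, and Timp4 is the TIMP best known for its cardiac expression.

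Values are TPM, a transcript abundance corrected for transcript length and set to a fixed sum per library, so levels can be set side by side between genes. TPM keeps no read depth, and the depth behind each value is unknown. A log2 difference is the DKO mean less the WT mean of log2(TPM + 1), which makes changes at low TPM look smaller. They were tested with limma over 14541 genes with Benjamini-Hochberg (BH) adjustment over all of them, and a gene was called at an adjusted p under 0.05. Between 14084 and 14623 genes reached 1 TPM in a library. Mbnl1 averaged 106 ± 3.16 TPM in DKO and 155 ± 8.98 TPM in WT hearts, and Mbnl2 237 ± 9.46 TPM in DKO and 169 ± 20.1 TPM in WT hearts (SD, n = 3 each). Gene-level values also hold reads from outside the deleted exons and, for Mbnl2, from cells without Cre, so they do not check the alleles. For replicate 7 the genotype tag reads WT, against DKO in the title and the source name, which were followed here. Mbnl1 had 102, 108 and 107 TPM in DKO 7, 8 and 9, against 145 to 161 TPM in the WT libraries. Mbnl2 had 227, 240 and 245 TPM in DKO 7, 8 and 9, against 149 to 189 TPM in the WT libraries. Xist reached 152 TPM in DKO 7 and 174 TPM in DKO 8, which had almost no Y-linked transcripts, while DKO 9 had 179 TPM and the WT libraries 163 to 179 TPM of 4 Y-linked genes, so sex is unevenly spread over the groups. The labels do not state that each library is a different animal; p-values then cover only the spread between these libraries, which may be technical. In whole tissue, fewer cells of a type and less RNA per cell cannot be told apart.

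The promoters of Timp1, Mmp3 and Timp4 are shown because these members had the largest differences among those whose level was above 1 TPM in every library. The sequences are RefSeq's 250 bases before the annotated start on GRCm38.p6, from 5′ to 3′ on the gene's own strand. Capitals mark the AP-1 motif TGANTCA, the variant TGAGTAA that is known as an AP-1 element of Timp1, and AGGAAG, a core of ETS-factor sites, each searched on both strands.
Timp1, chrX:20869916-20870165, plus strand: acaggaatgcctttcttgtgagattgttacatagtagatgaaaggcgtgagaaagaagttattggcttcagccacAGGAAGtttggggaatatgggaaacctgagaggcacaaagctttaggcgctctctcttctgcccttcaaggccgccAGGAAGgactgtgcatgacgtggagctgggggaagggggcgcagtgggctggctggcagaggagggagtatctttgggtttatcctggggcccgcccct
Mmp3, chr9:7445572-7445821, plus strand: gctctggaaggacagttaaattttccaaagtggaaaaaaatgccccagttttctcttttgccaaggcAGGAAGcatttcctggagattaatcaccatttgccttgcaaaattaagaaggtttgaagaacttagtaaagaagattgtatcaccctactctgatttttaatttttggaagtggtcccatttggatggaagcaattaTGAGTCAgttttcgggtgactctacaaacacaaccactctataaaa
Timp4, chr6:115252206-115252455, minus strand: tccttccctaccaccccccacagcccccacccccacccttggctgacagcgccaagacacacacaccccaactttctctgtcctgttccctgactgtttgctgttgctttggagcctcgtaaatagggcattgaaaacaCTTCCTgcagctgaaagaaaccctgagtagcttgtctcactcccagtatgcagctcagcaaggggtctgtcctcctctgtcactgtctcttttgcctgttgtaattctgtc
Just after its annotated start, Timp1 holds the variant and an ETS core close together, and this short stretch is given on its own.
Timp1, chrX:20870192-20870215, plus strand: TGAGTAAtgcgtccAGGAAGcctg

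Of the members, 7 matched the promoter table; Mmp2 and Mmp9 are named only. In windows of 300 bases (250 before and 50 after the start), TGANTCA was found in Mmp3 alone of these 7, 46 bases before its start, and in 7.81% of all 32851 promoter windows. TGAGTAA was found in Timp1 alone, at base 27 of the transcript, and in 2.68% of all windows. AGGAAG was found in 5 of the 7 members (Timp1, Timp3, Timp4, Mmp3 and Mmp14) and in 35.4% of all windows. The TATA-box letters TATAAA were found in Mmp3 alone of the 7, and in 13.6% of all windows. The GC-box letters GGGCGG were found in 5 of the 7 (Timp1, Timp2, Timp3, Mmp14 and Mmp15), against 35.7% of all windows. No match overlapped another in these members. The matches describe letters only.

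Of the 9 members, 5 were higher in DKO hearts (Timp1, Timp2, Mmp2, Mmp3 and Mmp14), 2 were lower (Timp4 and Mmp9), and Timp3 and Mmp15 did not pass the test. Over all genes tested, 10.7% were called, 6.51% as higher and 4.22% as lower. The DKO and WT values did not overlap for 7 of the 9 members, against 33.0% of all genes tested. Mmp9 reached 1 TPM only in the WT libraries, so the filter itself fixed its separation, and it adds nothing to the counts of called or separated members. The median log2 difference was 0.43 over the members and 0.03 over all genes tested. The members were chosen with earlier results of these data known, so these counts and medians may partly restate that choice. Permuting the 6 libraries exactly (two-sided) gave p = 0.1, the smallest p that 3 against 3 allows, for each called member other than Mmp9, where the filter fixed the outcome, and gave 0.3 for Timp3 and 0.6 for Mmp15. All 7 calls ended with replicate 7 counted as WT, with a term for Y-linked transcripts, and in the 4 libraries with Y-linked transcripts alone. Over all genes tested, the 1560 calls became 1 with replicate 7 counted as WT and 92 with the Y-linked term. The loss was thus not particular to the members. With the Y-linked term the log2 differences kept their direction: 2.85 for Timp1, 1.62 for Mmp3, 0.59 for Timp2, 0.53 for Mmp14 and 0.38 for Mmp2. They were -1.55 for Timp4 and -1.18 for Mmp9. These estimates rest on DKO 9, the only DKO library with Y-linked transcripts. Sex and genotype are partly confounded here, and their parts were not tested further.

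**Figure D1:**
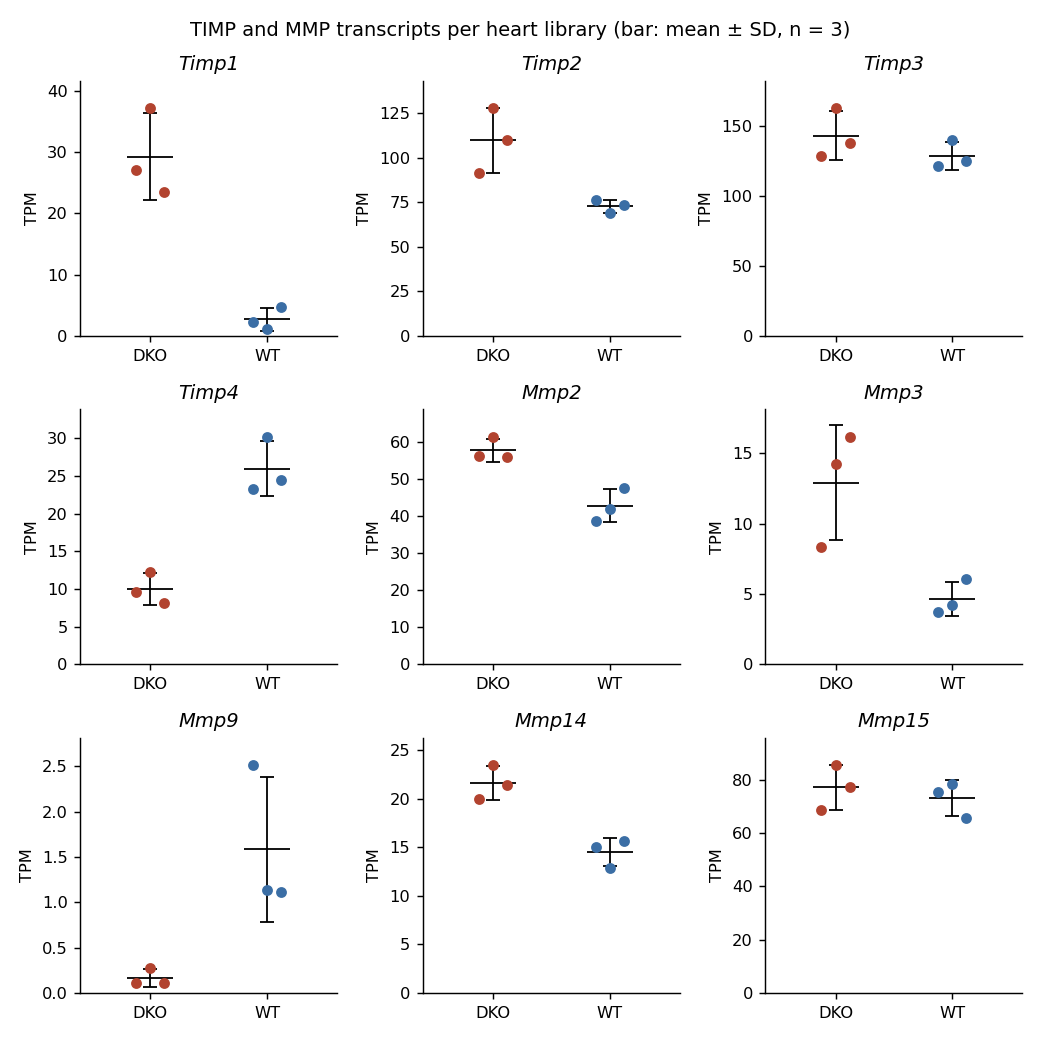
TPM of each of the 9 members in the 3 DKO libraries (left of each panel) and the 3 WT libraries (right); points are libraries, bars the mean ± SD, and each axis starts at 0. Timp1 lies between 23.5 and 37.1 TPM in DKO and between 1.09 and 4.78 TPM in WT hearts, while Timp3 and Mmp15 overlap between the groups.

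Timp1, a secreted inhibitor that is often induced in injured and fibrotic tissue, lies on chromosome X (GRCm38, 20870166 to 20874735, plus strand). It had 27.1, 37.1 and 23.5 TPM in DKO hearts 7, 8 and 9, against 2.24, 1.09 and 4.78 TPM in WT hearts 4, 5 and 6. Every DKO library was several times above the highest WT library. The log2 difference was 3.13 (SE 0.37; BH adjusted p in limma = 0.00622), and the DKO mean was 10.8 times the WT mean. That ratio was 17.6 without WT 6, the WT library with the most Timp1, and between 8.34 and 11.9 when any other single library was left out. Timp1 stayed called in all 6 of these fits (BH adjusted p in limma up to 0.0287). Among the libraries with Y-linked transcripts, DKO 9 stood 2.85 above the WT libraries on the log2 scale (BH adjusted p in limma = 0.175).

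Timp4, on chromosome 6 (115241892 to 115252205, minus strand), moved the other way. It had 9.58, 12.3 and 8.19 TPM in the DKO hearts 7, 8 and 9, against 23.3, 30.2 and 24.4 TPM in the WT hearts 4, 5 and 6. All DKO values lay below all WT values. The log2 difference was -1.30 (SE 0.17; BH adjusted p in limma = 0.00772), and the DKO mean was 0.385 of the WT mean. The call held whichever library was left out (BH adjusted p in limma up to 0.0319). Timp1 and Timp4 therefore changed places: the ratio of Timp1 to Timp4 TPM was 2.83, 3.02 and 2.87 in DKO 7, 8 and 9, against 0.0958, 0.0361 and 0.196 in WT 4, 5 and 6.

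Timp2, on chromosome 11 (118301069 to 118355740, minus strand), is widely expressed and takes part with Mmp14 in the activation of Mmp2. It had 91.6, 128 and 110 TPM in DKO hearts 7, 8 and 9, against 76.1, 69.0 and 73.4 TPM in WT hearts 4, 5 and 6. The groups did not overlap, but DKO 7 stood closer to the WT range than DKO 8 and DKO 9 did. The log2 difference was 0.57 (SE 0.12; BH adjusted p in limma = 0.0325). The Timp2 call was lost without WT 4 (BH adjusted p in limma = 0.0705), WT 5 (0.0892), WT 6 (0.0879), DKO 8 (0.0732) or DKO 9 (0.0857). Timp3, on chromosome 10 (86300372 to 86349506, plus strand), is an inhibitor that binds to the matrix and also acts on ADAM proteases. It had 129, 163 and 138 TPM in the DKO hearts 7, 8 and 9, against 122, 140 and 125 TPM in the WT hearts. Its groups overlapped, with a log2 difference of 0.15 (SE 0.10; BH adjusted p in limma = 0.425).

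The 4 TIMP genes together reached 257, 340 and 280 TPM in DKO hearts 7, 8 and 9, against 223, 241 and 228 TPM in WT hearts 4, 5 and 6. Timp3 was the largest part in every library, with 49.2% ± 1.13 in DKO and 55.9% ± 2.11 in WT hearts (SD, n = 3 each, as in the next values). Timp2 made up 37.5% ± 1.81 in DKO and 31.6% ± 2.76 in WT hearts. Timp1 made up 9.96% ± 1.35 of the TIMP total in DKO and 1.18% ± 0.838 in WT hearts. Timp4 made up 3.42% ± 0.432 in DKO and 11.2% ± 1.14 in WT hearts. The plot of summed TPM shows this exchange as the bottom and top blocks of the TIMP bars. These shares are sums over the members and were not tested.

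**Figure D2:**
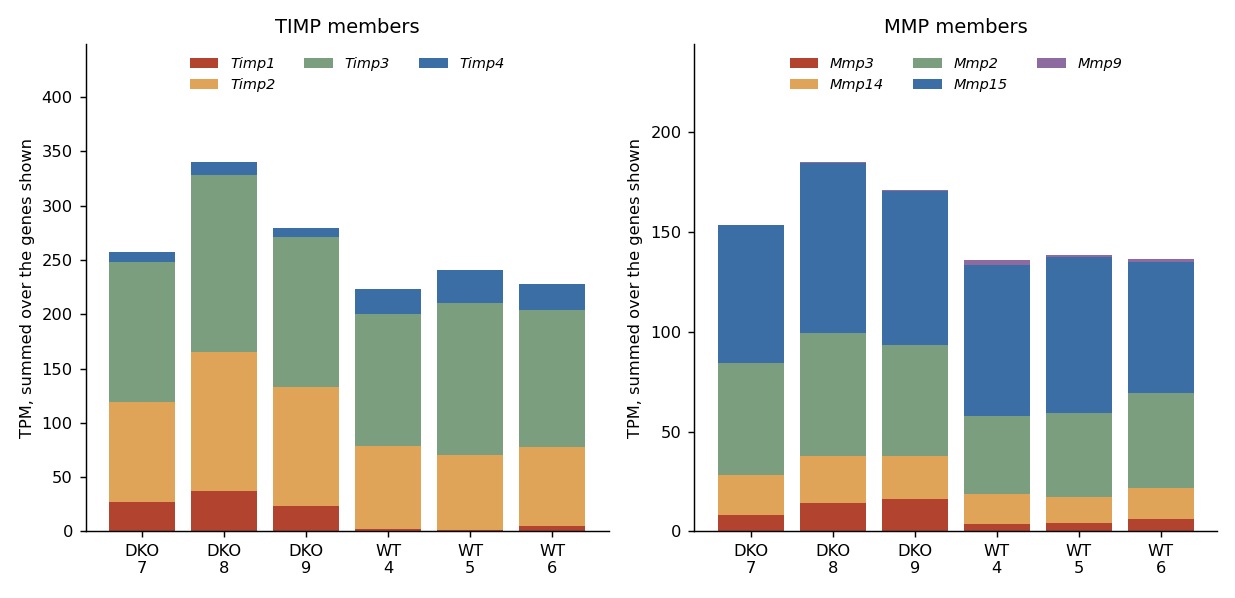
Stacked TPM of the 4 TIMP members (left panel) and the 5 MMP members (right panel) in each library, with the DKO libraries left of the WT libraries; bars start at 0. Timp1 fills 8.41% to 10.9% of the TIMP total in DKO and 0.453% to 2.10% in WT hearts, while Timp4 fills 2.93% to 3.72% in DKO and 10.5% to 12.5% in WT hearts.

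Among the secreted proteases, Mmp3 (stromelysin, which cuts proteoglycans and can activate other MMPs; chromosome 9, 7445822 to 7455975) had 8.32, 14.3 and 16.2 TPM in DKO hearts 7, 8 and 9, against 3.70, 4.24 and 6.04 TPM in WT hearts 4, 5 and 6. All DKO values were above all WT values, with DKO 7 nearest to WT 6. The log2 difference was 1.27 (SE 0.27; BH adjusted p in limma = 0.0314), and the DKO mean was 2.77 times the WT mean. The Mmp3 call was lost without WT 4 (BH adjusted p in limma = 0.0861), WT 5 (0.0826), DKO 8 (0.101) or DKO 9 (0.0847).

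Mmp2, the gelatinase of mesenchymal cells (chromosome 8, 92827291 to 92853420), had 56.2, 61.5 and 55.9 TPM in DKO hearts 7, 8 and 9, against 38.9, 42.0 and 47.6 TPM in WT hearts 4, 5 and 6. The 3 DKO values lay close together and above every WT value. The log2 difference was 0.43 (SE 0.10; BH adjusted p in limma = 0.036). Without WT 4 (BH adjusted p in limma = 0.0939), WT 5 (0.0925), DKO 7 (0.0801), DKO 8 (0.109) or DKO 9 (0.0791), Mmp2 was not called.

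Mmp9, the gelatinase typical of neutrophils and macrophages (chromosome 2, 164940780 to 164955850), had 0.111, 0.279 and 0.106 TPM in DKO hearts 7, 8 and 9, against 2.51, 1.14 and 1.11 TPM in WT hearts 4, 5 and 6. It passed the filter through the WT libraries alone, where it was high, so it had to differ, and its test is no support for a change. The log2 difference of Mmp9 was -1.11 (SE 0.27; BH adjusted p in limma = 0.0485). The Mmp9 call was lost in each of the 6 fits without 1 library, with an adjusted p (limma, BH) of 0.114, 0.0737 and 0.0884 without WT 4, 5 and 6, and 0.123, 0.106 and 0.123 without DKO 7, 8 and 9. With a pseudocount of 0.1 the log2 difference was -2.63 (BH adjusted p in limma = 0.0585). The TPM ratio of Mmp2 to Mmp9 was 505, 221 and 526 in DKO hearts 7, 8 and 9, against 15.5, 37.0 and 42.8 in WT hearts 4, 5 and 6. This ratio divides by the low Mmp9 values, so it mostly repeats the separation that the filter fixed.

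Of the membrane-anchored proteases, Mmp14 (chromosome 14, 54431612 to 54445364), a collagenase and the activator of Mmp2, had 20.0, 23.5 and 21.4 TPM in DKO hearts 7, 8 and 9, against 15.0, 12.9 and 15.7 TPM in WT hearts 4, 5 and 6. The groups did not overlap. The log2 difference was 0.54 (SE 0.11; BH adjusted p in limma = 0.0311). The Mmp14 call was lost without any single library, with an adjusted p (limma, BH) of 0.072, 0.0755 and 0.0616 without WT 4, 5 and 6, and 0.0561, 0.0978 and 0.0828 without DKO 7, 8 and 9. Mmp15, a related membrane-anchored protease (chromosome 8, 95352268 to 95375080), had 68.9, 85.5 and 77.3 TPM in the DKO hearts, against 75.7, 78.5 and 65.8 TPM in the WT hearts. Its groups overlapped, with a log2 difference of 0.07 (SE 0.11; BH adjusted p in limma = 0.721).

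The 3 genes of the Mmp2 activation complex, Mmp2, Mmp14 and Timp2, were all called as higher. Mmp14 per Timp2 was 0.199 ± 0.0174 in DKO and 0.200 ± 0.0135 in WT hearts (TPM ratio; SD, n = 3 each). Mmp2 per Timp2 was 0.535 ± 0.0696 in DKO and 0.590 ± 0.0711 in WT hearts, and both ratios overlapped between the groups. The 5 MMP members together gave 153, 185 and 171 TPM in DKO hearts 7, 8 and 9, against 136, 139 and 136 TPM in WT hearts 4, 5 and 6. The TIMP total was 1.72 ± 0.107 times the MMP total in DKO and 1.68 ± 0.0462 times in WT hearts (SD, n = 3 each). This ratio overlapped between the groups (1.64 to 1.84 in DKO, 1.64 to 1.73 in WT), although both totals were higher in every DKO library. Ratios of transcripts are not ratios of active protease to inhibitor.

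By mean TPM, the order in DKO hearts was Timp3, Timp2, Mmp15, Mmp2, Timp1, Mmp14, Mmp3, Timp4 and Mmp9. Of neighbours in that order, Mmp3 and Timp4 overlapped over the libraries. The order in WT hearts was Timp3, Mmp15, Timp2, Mmp2, Timp4, Mmp14, Mmp3, Timp1 and Mmp9, where Mmp15 overlapped Timp2, Mmp3 overlapped Timp1 and Timp1 overlapped Mmp9. Timp1 thus stood at rank 5 in DKO and rank 8 in WT hearts, and Timp4 at rank 8 in DKO and rank 5 in WT hearts.

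The table holds 18 further MMP genes, and none of the 7 that passed the filter was called (limma, BH; 0 also at an unadjusted p under 0.05). Mmp23 was the most abundant, with 16.4 ± 1.41 TPM in DKO and 12.7 ± 4.29 TPM in WT hearts (SD, n = 3 each; log2 difference 0.39, SE 0.24; BH adjusted p in limma = 0.34). Mmp17 averaged 1.06 ± 0.387 TPM in DKO and 1.52 ± 0.0785 TPM in WT hearts, without overlap, and had a BH adjusted p in limma of 0.423. Mmp16 averaged 0.797 ± 0.207 TPM in DKO and 1.31 ± 0.0922 TPM in WT hearts; it passed the filter through WT alone, which fixed its separation, and was not called (BH adjusted p in limma = 0.295). Mmp11, Mmp19, Mmp25 and Mmp28 differed by less than 1 SE. Mmp1a, Mmp1b, Mmp7 and Mmp10 were listed at 0 in all 6 libraries. The median log2 difference of the 7 was -0.11. The plot of log2 differences sets them beside the members. The 5 MMP members made up 82.3% ± 0.694 of all MMP TPM in DKO and 80.4% ± 2.65 in WT hearts.

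**Figure D3:**
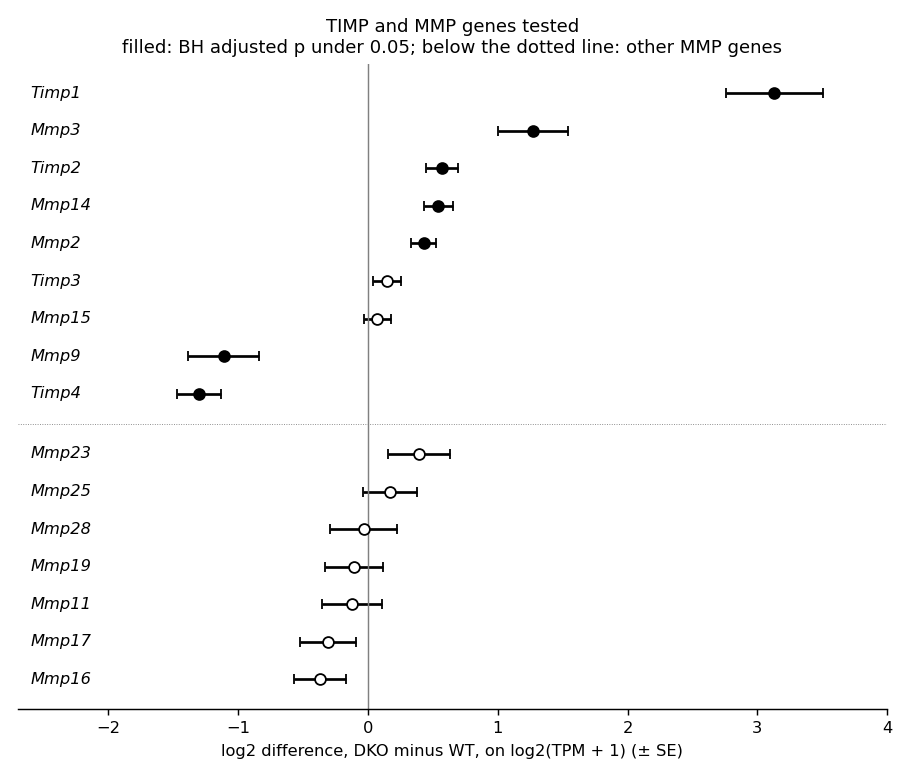
Log2 difference, DKO minus WT, on log2(TPM + 1) with its SE for the 9 members (above the dotted line) and the 7 other MMP genes tested (below it); filled points had a BH adjusted p under 0.05 in limma. Timp1 at 3.13 and Timp4 at -1.30 are the outer members, and no gene below the line is filled.

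In mouse, 3 of the TIMP genes lie inside synapsin genes on the opposite strand, which allows host and nested gene to be set side by side. Timp1 lies in intron 5 of Syn1, Timp3 in intron 6 of the Syn3 transcript with the most exons, and Timp4 within the span of Syn2 (chromosome 6, 115134902 to 115282006). Synapsins are proteins of synaptic vesicles. Syn2 had 7.64, 7.35 and 8.13 TPM in DKO hearts 7, 8 and 9, against 1.99, 2.21 and 2.31 TPM in WT hearts 4, 5 and 6. The groups were far apart, with a log2 difference of 1.46 (SE 0.14; BH adjusted p in limma = 0.0039), and the call held whichever library was left out (BH adjusted p in limma up to 0.0208). At this locus the nested Timp4 was thus lower and the host Syn2 higher in the same 3 libraries: Timp4 per Syn2 was 1.25, 1.67 and 1.01 in DKO 7, 8 and 9, against 11.7, 13.7 and 10.6 in WT 4, 5 and 6. At the Timp1 locus the host Syn1 lay between 0.277 and 0.417 TPM in DKO and between 0.263 and 0.445 TPM in WT hearts, below the filter. Syn3 had 3.59 ± 0.801 TPM in DKO and 3.14 ± 0.169 TPM in WT hearts (SD, n = 3 each; BH adjusted p in limma = 0.691), and its nested Timp3 did not pass either. In GENCODE M21 the exons of Timp4 and Syn2 share 90 bases, of which 0 lie within the span RefSeq gives Timp4, and those of Timp3 and Syn3 share 1733 bases. The kit marks strand, but whether quantification used it is not given in the sources used here, so reads from shared bases could count toward either gene.

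**Figure D4:**
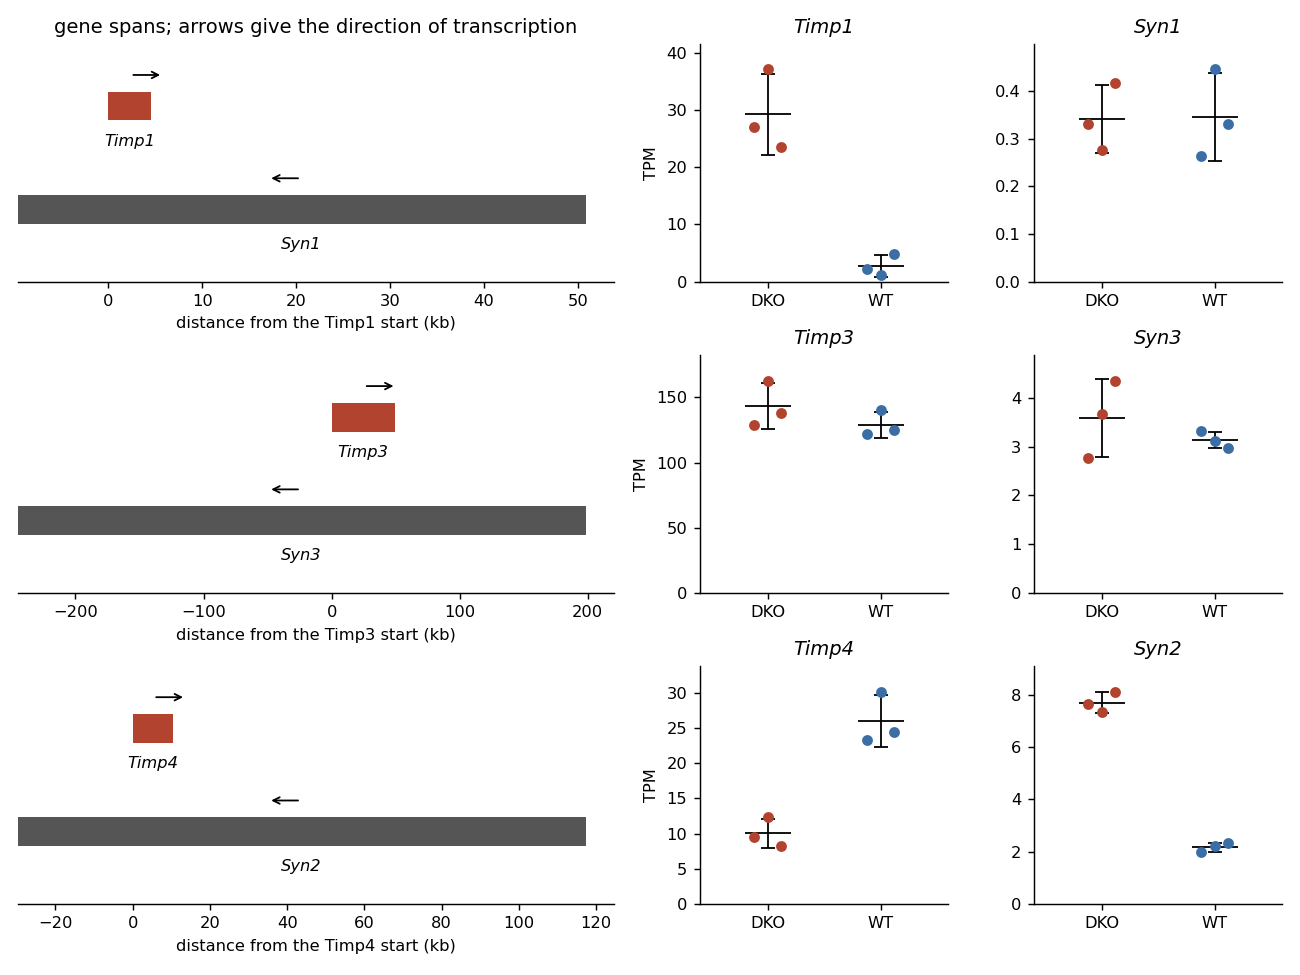
Left, the spans of Timp1, Timp3 and Timp4 and of the synapsin gene that holds each, in kilobases from the TIMP gene's start along its own strand, with arrows for the direction of transcription; right, TPM of both genes in the DKO (left) and WT (right) libraries, with the mean ± SD. Only the Timp4 and Syn2 panels both separate the groups, in opposite directions; Timp1 separates them while Syn1 overlaps.

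The patterns nearest to Timp1 were sought over the 6 libraries by the root mean square distance between log2(TPM + 1) values, each less the gene's own WT mean. The nearest 5 of the genes tested were Cilp (distance 0.219), Sfrp2 (0.354), Kcne1 (0.398), Comp (0.404) and Casq1 (0.459). Cilp and Comp encode cartilage-type matrix proteins, Sfrp2 a secreted WNT-binding protein, Kcne1 a potassium channel subunit and Casq1 the skeletal muscle calsequestrin. Sfrp2 averaged 39.0 ± 5.70 TPM in DKO and 4.98 ± 1.47 TPM in WT hearts (SD, n = 3 each). Nearest to Timp4 were Gpt (0.122), Styxl1 (0.161), Polh (0.165), Corin (0.178) and Acot1 (0.186). Styxl1 had 0.286, 0.714 and 0.553 TPM in DKO 7, 8 and 9. It passed the filter through WT alone, which fixed its separation. Corin, the protease that processes pro-natriuretic peptides, averaged 73.7 ± 2.53 TPM in DKO and 168 ± 10.7 TPM in WT hearts. Gpt, an alanine aminotransferase, averaged 18.2 ± 2.47 TPM in DKO and 47.4 ± 9.57 TPM in WT hearts. These neighbours were ranked over the libraries that define the groups, so any gene with a like difference comes near.

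Of 20 other inhibitors, activators and partners of MMPs, 17 were tested, 5 were higher and 1 lower, with a median log2 difference of 0.34. Over all genes tested, 6.51% were called as higher and 4.22% as lower. Cd44, a hyaluronan receptor that can hold MMPs at the cell surface, rose to 20.6 ± 2.18 TPM in DKO, against 7.66 ± 1.09 TPM in WT hearts (SD, n = 3 each; BH adjusted p in limma = 0.00469). Plat, tissue plasminogen activator, averaged 27.7 ± 2.75 TPM in DKO and 16.9 ± 2.19 TPM in WT hearts and was called as higher (BH adjusted p in limma = 0.0219), though not without WT 4, WT 5, DKO 7 or DKO 8 (up to 0.0749). Furin, a convertase that removes the Mmp14 propeptide, Cd63, a binding partner of Timp1, and Pcolce, an enhancer of procollagen processing, were also called as higher; they are named because they complete the count of higher genes, after their values were seen. Furin averaged 89.4 ± 5.88 TPM in DKO and 70.4 ± 4.94 TPM in WT hearts, and Cd63 averaged 215 ± 13.5 TPM in DKO and 161 ± 10.9 TPM in WT hearts. Pcolce averaged 104 ± 16.0 TPM in DKO and 52.9 ± 11.6 TPM in WT hearts. Reck, a membrane-anchored MMP inhibitor, was not called (BH adjusted p in limma = 0.605).

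Of 18 ADAM, ADAMTS and ADAMTS-like genes, listed as sister families of the MMPs, 2 were higher and 0 lower, with a median log2 difference of 0.23. This count, which includes the ADAMTS-like Adamtsl2, is close to the share over all genes tested, of which 10.7% were called. Adamtsl2, a microfibril-binding protein without protease activity, rose to 46.6 ± 14.8 TPM in DKO, against 8.53 ± 4.31 TPM in WT hearts (SD, n = 3 each; BH adjusted p in limma = 0.017), a call lost without DKO 7 (0.0562) or DKO 8 (0.0617). Adamts2, a procollagen peptidase, rose to 23.1 ± 4.35 TPM in DKO, against 14.0 ± 1.70 TPM in WT hearts (BH adjusted p in limma = 0.0411), a call lost without WT 4 (0.0643), WT 5 (0.104), WT 6 (0.107), DKO 8 (0.0981) or DKO 9 (0.0934). Adam19 had 34.7 ± 7.70 TPM in DKO and 22.3 ± 4.72 TPM in WT hearts and was not called (BH adjusted p in limma = 0.116).

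Matrix proteins that these proteases cut or bind gave 10 higher and 0 lower of 19 tested, with a median log2 difference of 0.75. The shares over all genes tested were 6.51% higher and 4.22% lower. Periostin (Postn) had a log2 difference of 2.06 and biglycan (Bgn) of 1.34, with adjusted p (limma, BH) of 0.00227 and 0.00896. Tenascin C (Tnc), among the 10, averaged 4.39 ± 1.43 TPM in DKO and 0.505 ± 0.277 TPM in WT hearts; it passed the filter through DKO alone and had to differ, so it adds nothing to that count. Of 28 genes that encode known inducers of Timp1 and MMP genes or their receptors and factors, 24 were tested, 5 were higher and 2 lower, and the median log2 difference was 0.02. Ctf1 (cardiotrophin, a cytokine of the interleukin-6 family) fell to 3.16 ± 0.819 TPM in DKO, against 11.1 ± 0.549 TPM in WT hearts (SD, n = 3 each; BH adjusted p in limma = 0.00593). Tgfb2, a TGF-beta ligand, averaged 17.1 ± 4.74 TPM in DKO and 6.99 ± 0.932 TPM in WT hearts and was called as higher (BH adjusted p in limma = 0.021; not without WT 4, WT 5, DKO 8 or DKO 9, up to 0.0622). The transcription factor Runx1 was called as higher too, with 5.50 ± 0.509 TPM in DKO and 2.49 ± 0.320 TPM in WT hearts (BH adjusted p in limma = 0.0182; not without WT 4, WT 6, DKO 7 or DKO 8, up to 0.0666). The other calls in this list, named after their values were seen, were Tgfb3, Osmr and Stat3 as higher and Lifr as lower. Of the AP-1 genes, Fos, Jun, Junb, Jund and Fosl2 were not called, and Fosb and Fosl1 were below the filter. Jund was lower in DKO without overlap (45.4 to 56.7 TPM in DKO, 62.8 to 67.6 TPM in WT hearts). So was Jun (38.9 to 60.3 TPM in DKO, 60.7 to 72.7 TPM in WT hearts), while Fos, Junb and Fosl2 overlapped. Over all genes tested, 33.0% did not overlap. Fos had 4.36, 5.23 and 1.17 TPM in DKO hearts 7, 8 and 9, against 44.1, 3.56 and 6.46 TPM in WT hearts 4, 5 and 6, so WT 4 stood apart.

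Some markers of the cell types that could supply these transcripts also differed. The fibroblast, endothelial, atrial and erythroid sums overlapped between the groups. For the counts below, 6.51% of all genes tested were called as higher and 4.22% as lower. Of 8 macrophage markers 5 were higher and 0 lower, and their summed level ran from 413 to 560 TPM in DKO and from 188 to 291 TPM in WT hearts. Of 9 fibroblast markers 3 were higher and 0 lower, with sums from 1677 to 2088 TPM in DKO and from 1744 to 1861 TPM in WT hearts. Gsn, the largest part of each fibroblast sum, averaged 787 TPM in DKO and 925 TPM in WT hearts and was not called. Every other fibroblast marker listed had a higher mean in DKO. Of 6 cardiomyocyte markers 2 were lower and 0 higher. Their sums ran from 38444 to 41041 TPM in DKO and from 42829 to 45652 TPM in WT hearts. Actc1 alone of this list had the higher mean in DKO (11973 TPM, against 10365.5 TPM in WT hearts) and was not called. The cardiomyocyte markers were abundant in every library, as the label heart asks. Of 6 mural cell markers 2 were lower (504 to 560 TPM in DKO, 628 to 662 TPM in WT hearts), and of 6 endothelial markers 2 were lower (470 to 534 TPM in DKO, 528 to 592 TPM in WT hearts). Of 8 neutrophil markers, 3 were tested and 0 called (limma, BH; 2 at an unadjusted p under 0.05), and Ly6g and Mpo were listed at 0 in all 6 libraries. The neutrophil sums were 47.8 to 85.4 TPM in DKO and 34.6 to 45.8 TPM in WT hearts, but the listed genes differed in direction. Cxcr2 averaged 34.8 TPM in DKO and 33.6 TPM in WT hearts. S100a9 averaged 17.8 and 2.41 TPM, and S100a8 15.0 and 3.62 TPM, in DKO and WT hearts. Ngp (0.255 and 0.930 TPM) and Camp (0 and 0.570 TPM) had the higher mean in WT hearts. Atrial markers summed to 2487 to 4210 TPM in DKO and 422 to 6760 TPM in WT hearts, highest in WT 4. Nppa made up most of each DKO sum and averaged 3277 TPM in DKO and 1805 TPM in WT hearts. Every other atrial marker listed had a lower mean in DKO, among them Myl4 (128 against 412 TPM) and Myl7 (140 against 430 TPM). Erythroid markers summed to 1781 to 6763 TPM in DKO and 6042 to 38458 TPM in WT hearts. The part of any of these in the changes of the 9 members was not tested.

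**Figure D5:**
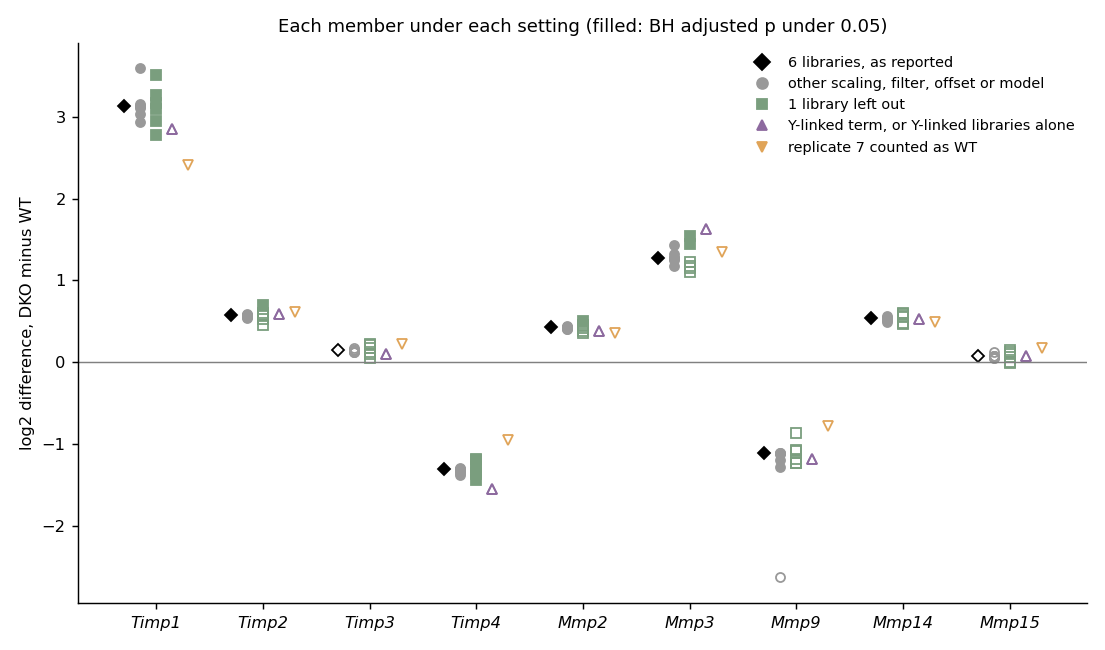
Log2 difference, DKO minus WT, of each member under each way of fitting the data; filled symbols had a BH adjusted p under 0.05. Timp1 and Timp4 stay filled with each library left out, while all members are open with a Y-linked term, with DKO 9 as the lone DKO library and with replicate 7 counted as WT; directions hold except for Mmp15, which reaches -0.0030.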

How the data were processed

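The authors deposited 1 table of TPM values, 1 column per library. The submitters' processing notes name bcl2fastq, kallisto 0.44.0 and mm10; the sources used here do not give the annotation or how transcripts were joined into genes. TPM divides by each library's total, so a shift in a few abundant RNAs moves all other values, and it keeps no depth.

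A gene was tested if 3 or more libraries had 1 TPM or more. The test was limma 3.58.1 in R 4.3.3 (a linear model with a trended eBayes prior) on log2(TPM + 1), DKO against WT, with BH adjustment over all genes tested. The fit was tested on simulated data. Groups follow the titles. Positions and exon overlaps come from GENCODE M21 (GRCm38), promoters from RefSeq. The members and lists were chosen with earlier results of these data known. Named are all members, the other tested MMP genes, the synapsin genes, from each further list except the markers the 3 smallest p-values, and the 5 nearest patterns to Timp1 and Timp4; others are values given beside a count. Alternatives changed the pseudocount, filter, scaling, prior and libraries. Matplotlib 3.10.9 drew the figures. A gene named by this rule is not reported here.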

Additional observations from a re-analysis of the deposited data

How the results depend on the processing

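The number of genes called, 1560, became 647 with no filter, 92 with a term for Y-linked transcripts, 12 in the 4 libraries with Y-linked transcripts and 1 with replicate 7 counted as WT, and lay between 622 and 877 with 1 library left out. The 7 called members became 2 with no filter (Timp1 and Timp4), 0 with the Y-linked term, 0 in the 4 libraries with Y-linked transcripts and 0 with replicate 7 as WT; at an unadjusted p under 0.05 (limma) these last 3 fits gave 7, 6 and 4 members. Leaving out 1 library gave between 2 and 4 called members, Timp1 and Timp4 each time. The cause was not tested. Dropping the filter raised the genes tested from 14541 to 24525, and the subsets hold fewer libraries. With DKO 9 the lone DKO library, its spread was assumed to be that of WT. With the Y-linked term, adjusted p (limma, BH) was 0.0934 for Timp1 and 0.0561 for Timp4. A pseudocount of 0.1 left 6 members called, a filter of 5 TPM 6 (without Mmp9), eBayes without trend 5 (without Timp2 and Mmp2), and median-ratio scaling, quantile scaling, rescaling without haemoglobin and short RNA and array weights 7 each. Rescaling without haemoglobin and short RNA gave 854 lower and 1154 higher genes, quantile scaling 817 lower and 880 higher, and median-ratio scaling 811 lower and 943 higher, against 614 lower and 946 higher. Over 17 settings, 150 of 152 member values kept their direction; the exceptions were Mmp15 without WT 6 or DKO 8, in a range of -0.0030 to 0.15. Among genes not called, signs turned for Mmp17 (0.012) and Mmp28 (0.055) with replicate 7 as WT, Mmp25 (-0.013 with replicate 7 as WT, -0.041 with quantile scaling), Syn3 (-0.012 with quantile scaling) and Mmp19 (0.0037 with array weights), and with 1 library left out for Mmp11 (-0.35 to 0.079), Mmp19 (-0.32 to 0.082) and Mmp28 (-0.29 to 0.17). The difference in the ratio of TIMP to MMP totals, 0.0331, lay between -0.0275 and 0.0732 with 1 library left out. It was 0.0554 with replicate 7 as WT. In the 4 libraries with Y-linked transcripts it was -0.0471, with DKO 9 as the lone DKO library. No paired analysis was possible because the DKO and WT libraries share no replicate number.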
